A study of Bos taurus with 8 samples.

Results

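Transcripts of 10 genes that are known for their expression in the oocyte were followed through libraries made from bovine granulosa cells. The genes were *ZP2*, *ZP3*, *ZP4*, *GDF9*, *BMP15*, *KPNA7*, *ACCSL*, *MOS*, *DPPA3* and *NPM2*. They were listed by symbol, and all 10 were found among the 26804 genes of the table. The list was drawn up with the difference of these genes between summer and winter already known, so that difference is given below as a description and supports nothing. Granulosa cells (GCs) came from multiparous dry beef cows, given as Angus, while the paper describes them as crossbred *Bos taurus*. The cows were kept together, synchronized with a progesterone device and stimulated with follicle-stimulating hormone. They were sampled by ovum pick-up (OPU), the aspiration of follicles through a needle. The summer group held 4 libraries (Summer 1, 2, 3 and 5), collected in August, and the winter group 4 libraries (Winter 1, 3, 4 and 5), for which the sources name different months. Each library was made from the pooled RNA of 2 cows, and polyadenylated RNA was sequenced. The same herd was sampled in both seasons with 1 OPU session per season, and the effect of the season cannot be told apart from that of the session. Cumulus-oocyte complexes were left to settle in the collection tube, and GCs were pelleted from the fluid above them, with no sorting step named.

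The oocyte grows inside the follicle, surrounded by granulosa cells, and builds an extracellular coat called the zona pellucida. It secretes growth factors that act on the granulosa cells around it. It also stores messenger RNA and protein for meiosis and for the first divisions of the embryo, before the genome of the embryo takes over.

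Values are given as scaled TPM, that is, TPM (transcripts per 1000000) computed over the genes outside the mitochondrial genome, multiplied by a factor per library (trimmed mean of M-values, TMM). The 13 mitochondrial protein genes held 50.7 to 87.7% of TPM in summer libraries, against 85.1 to 92.0% in winter libraries. From the steps between low values, the number of reads (or read pairs) behind a value was inferred, in lowest whole terms. Of 7038 genes with a mean under 1 TPM, 7026 (99.829%) gave whole numbers within 0.001 read in every library. The total depth of a library was not recovered. Per unit of scaled TPM, the libraries held 37.1 to 100% of the reads of Summer 1 in summer, against 19.4 to 39.9% in winter. Over all genes, 13046 were tested with limma, of which 801 were called higher in summer and 870 lower.

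The 3 zona pellucida genes were read in every summer library. *ZP2* (ENSBTAG00000011504), a glycoprotein of the coat that takes part in sperm binding, had 1.46, 3.08, 0.934 and 1.57 scaled TPM in Summer 1, 2, 3 and 5, from 21, 32, 5 and 13 reads, against 0 in all 4 winter libraries. It was highest in Summer 2, and its groups did not overlap. *ZP3* (ENSBTAG00000014834), another structural glycoprotein of the coat, had 3.99, 3.19, 1.63 and 3.79 scaled TPM in summer, from 33, 19, 5 and 18 reads. In winter it was listed at 0 in Winter 1 and 4, and had 0.303 scaled TPM (1 read) in Winter 3 and 0.792 (2 reads) in Winter 5. Even the lowest summer value lay above the highest winter value. *ZP4* (ENSBTAG00000026085), the third coat gene, was the lowest of the 10, with 0.191, 0.662, 0.257 and 0.665 scaled TPM in summer, from 2, 5, 1 and 4 reads, against 0 in winter.

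In place of 0 winter reads, a floor of 3 reads was set over the 4 winter libraries together. The pooled summer level of *ZP2* was 10.7-fold that floor and that of *ZP4* 1.80-fold. For *ZP3*, which had reads in both seasons (75 in summer and 3 in winter), the ratio of summer to winter was 11.3, with a 95% exact interval of 3.71 to 55.8. Reads were not marked with molecular identifiers, so all intervals here cover counting error only. The floors take the summer reads as exact, so they are not 95% limits and are not like the intervals.

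The growth factors gave the least even picture. *GDF9* (ENSBTAG00000009478), a secreted factor of the TGF-beta family that acts on granulosa and cumulus cells, had 1.90, 1.38, 2.92 and 3.46 scaled TPM in summer, from 21, 11, 12 and 22 reads. In winter it was at 0 in Winter 1 and 5, at 0.226 (1 read) in Winter 3 and at 1.49 (5 reads) in Winter 4. The value of Winter 4 was above that of Summer 2, so *GDF9* was the only one of the 9 tested genes whose groups overlapped. Its pooled ratio of summer to winter was 4.95, with an interval of 2.16 to 14.0.

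*BMP15* (ENSBTAG00000045782), the close relative of *GDF9* with which it cooperates, was listed at 0 in Summer 1 but reached 1.13, 1.10 and 0.237 scaled TPM in Summer 2, 3 and 5, from 6, 3 and 1 reads, against 0 in winter. Its pooled summer level was 1.5-fold the floor of 3 winter reads. Since it was missing from 1 summer library, *BMP15* did not pass the filter on low values and was not among the genes tested.

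Among the genes that act inside the oocyte, *KPNA7* and *ACCSL* were read in all 4 summer libraries and in no winter library. *KPNA7* (ENSBTAG00000015737), a nuclear import receptor of the importin alpha family, had 1.70, 1.12, 2.17 and 2.96 scaled TPM in summer, from 19, 9, 9 and 19 reads, against 0 in winter. *ACCSL* (ENSBTAG00000012053), a gene named for its likeness to the plant enzyme ACC synthase, had 2.43, 1.0, 4.13 and 4.86 scaled TPM in summer, from 27, 8, 17 and 31 reads, against 0 in winter. Both were lowest in Summer 2 and highest in Summer 5. The pooled summer level was 8.41-fold the floor of 3 winter reads for *KPNA7* and 12.5-fold for *ACCSL*. The value of *ACCSL* was the highest of the 8 genes with no winter read.

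*MOS* (ENSBTAG00000019145), the kinase that switches on the MAP kinase pathway in the maturing oocyte, had 1.26, 0.658, 2.55 and 1.10 scaled TPM in summer, from 8, 3, 6 and 4 reads, against 0 in winter. Its highest value was in Summer 3. *DPPA3* (ENSBTAG00000046609), which in the mouse protects DNA methylation of the maternal genome, had 2.12, 0.402, 1.04 and 1.85 scaled TPM in summer, from 22, 3, 4 and 11 reads, against 0 in winter. *NPM2* (ENSBTAG00000046918), an egg histone chaperone of the nucleoplasmin family, had 0.421, 1.36, 0.757 and 2.44 scaled TPM in summer, from 3, 7, 2 and 10 reads, against 0 in winter. *DPPA3* was thus lowest in Summer 2, and *NPM2* was lowest in Summer 1. Relative to the floor of 3 winter reads, the pooled summer level was 3.15-fold for *MOS*, 6.0-fold for *DPPA3* and 3.30-fold for *NPM2*.

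**Figure D1:**
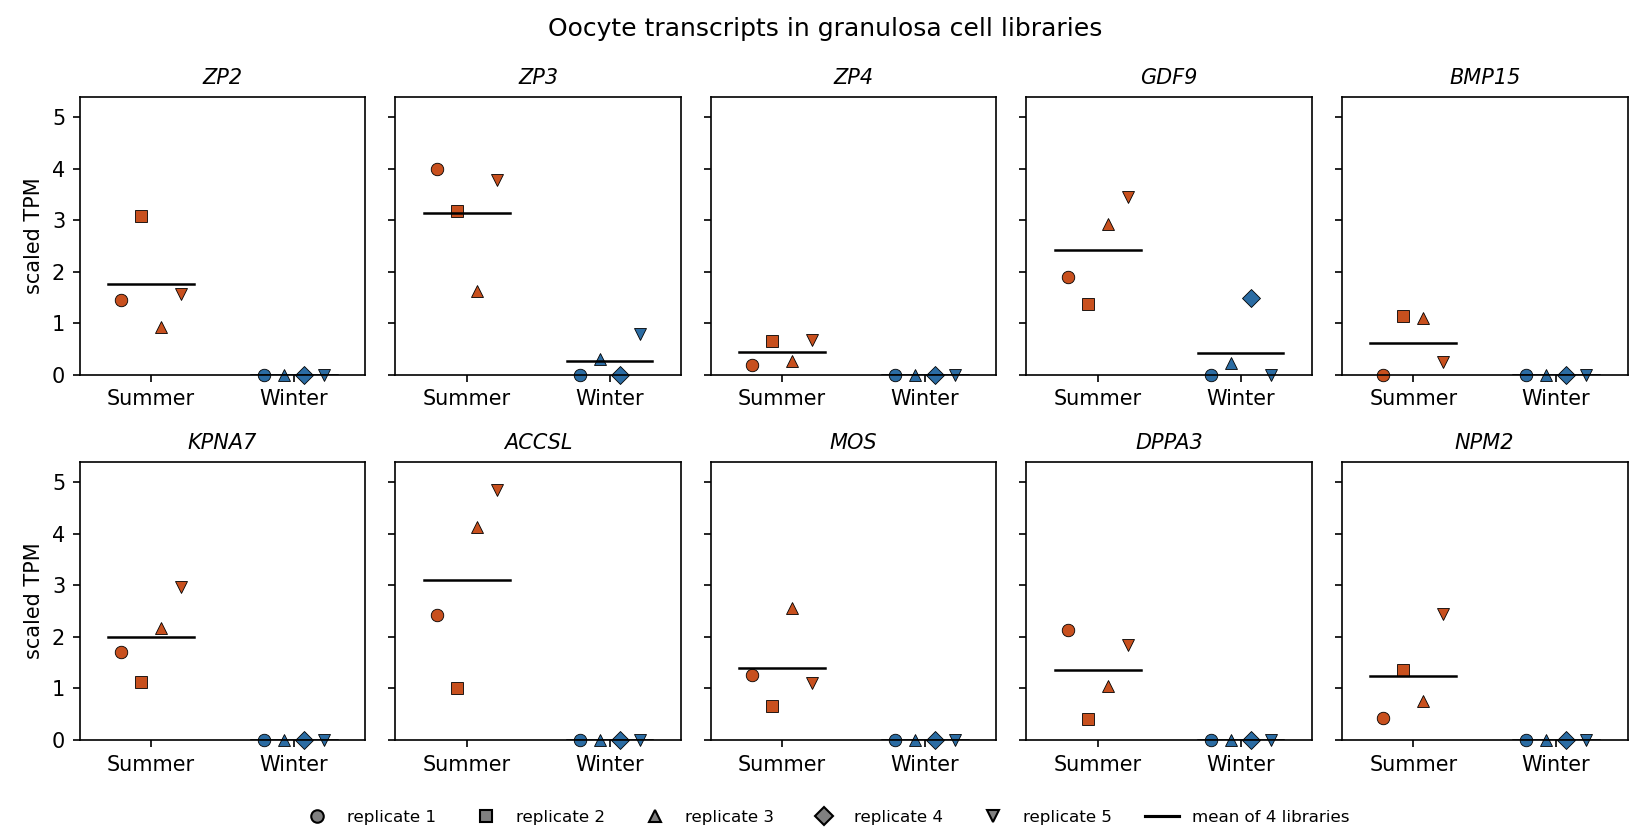
Scaled TPM (vertical axis) of each of the 10 oocyte genes, with Summer left of Winter, a point per library marked by its replicate number and a line at the mean of 4 libraries. All winter points lie at 0 except 2 of *ZP3* and 2 of *GDF9*, and the *GDF9* point of Winter 4 at 1.49 lies above the lowest summer point of that gene.

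By the rule used for all genes (2-fold on the log2(scaled TPM + 1) scale, adjusted p of at most 0.05 by limma with Benjamini-Hochberg adjustment, and, in each of the 4 libraries of the higher season, zFPKM above -3), 8 of the 9 tested members were called higher in summer, all but *ZP4*. Of all tested genes, 6.14% were called so. Summer and winter values did not overlap for 8 of the 9, against 13% of all tested genes with every summer library above every winter library. Listed at 0 in all winter libraries were 7 of the 9, against 0.537% of all tested genes, and at 0 in all summer libraries were 0 of the 9, against 0.0996%. Nothing is read from these counts, because the genes were chosen on this contrast and all 9 passed the filter through their summer values. On the log2 scale the differences ran from 0.51 for *ZP4* to 1.92 for *ACCSL*, with the added 1 holding down the change of such low values.

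Summed over the 10 genes, the level was 15.5, 14.0, 17.5 and 22.9 scaled TPM in Summer 1, 2, 3 and 5 (17.5 ± 3.92, mean ± SD, n = 4), against 0, 0.529, 1.49 and 0.792 in Winter 1, 3, 4 and 5 (0.704 ± 0.622, n = 4). The highest winter sum, in Winter 4, came from *GDF9* alone. Summer libraries differed from each other less than 2-fold in this sum, although single genes differed by more.

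In reads, the 10 genes had 156, 103, 64 and 133 in the summer libraries, against 0, 2, 5 and 2 in the winter libraries. The winter libraries together held 45% of the summer libraries' reads per unit of scaled TPM, so the pooled summer level would correspond to 205 winter reads, and 9 were read. The ratio of summer to winter was 22.8, with an exact interval of 11.9 to 50.2. Without Winter 4, a setting added once the values had been seen, it was 38.4 (14.9 to 142), from 456 summer reads and 4 winter reads. For the 8 genes other than *ZP3* and *GDF9*, there were 315 reads in summer and 0 in winter, where the summer level would correspond to 142.

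A single read weighed more in the libraries with fewer reads per unit of scaled TPM, a measure that depends on the scaling and is not depth. In deposited TPM a read was worth 0.733 to 1 times its Summer 1 value in summer and 0.586 to 0.716 times in winter. Winter 1 held the fewest reads per unit of scaled TPM. A read of *ZP2* was worth 0.357 scaled TPM in Winter 1 and a read of *MOS* 0.814, against 0.0694 and 0.158 in Summer 1. The lowest summer values of *ZP4* (0.191 and 0.257) and *BMP15* (0.237) were below what 1 read was worth in Winter 1 (0.492 and 0.700), so levels of that size were not detectable there.

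**Figure D2:**
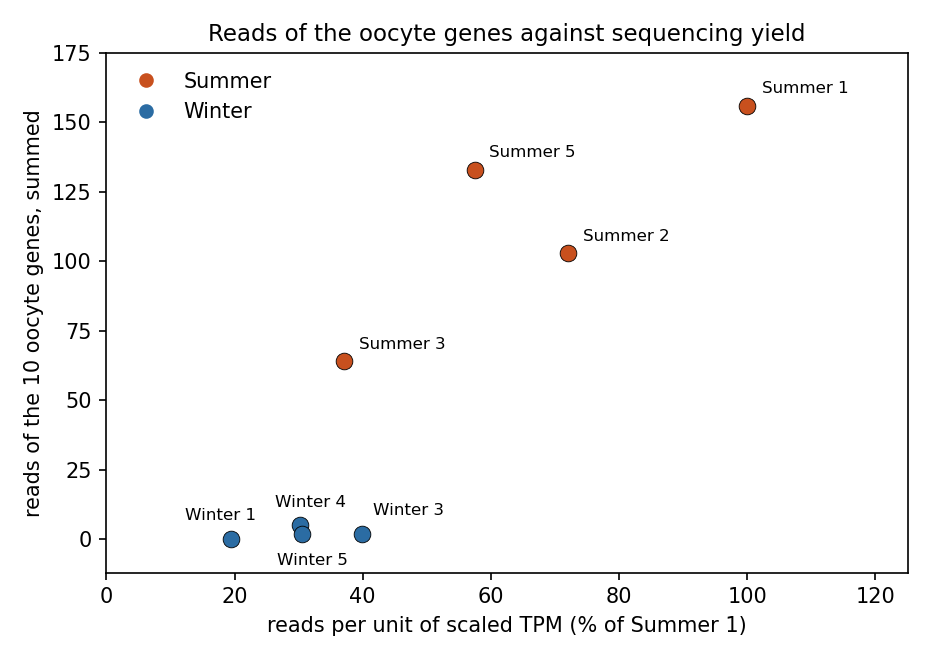
Summed reads of the 10 oocyte genes (vertical axis) in each library against its reads per unit of scaled TPM, as a percentage of Summer 1 (horizontal axis), with summer and winter libraries in separate colours. Summer 3 at 37.1% and Winter 3 at 39.9% stand close together on the horizontal axis, with 64 and 2 reads.

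Summer 3 was the summer library most like those of winter in reads per unit of scaled TPM and in mitochondrial share. Its mitochondrial share of 87.7% lay inside the winter range, and Winter 3 held 107.5% of its reads per unit of scaled TPM. All 10 genes were above 0 in Summer 3 (64 reads), against 2 of the 10 in Winter 3 (2 reads). The ratio for this pair of libraries was 34.4, with an interval of 9.15 to 290.3, which compares these 2 libraries and not the seasons. The share of mitochondrial TPM otherwise moved with season, and its part in the result was not tested further than by a fit with that share as a term, in which 2 of the 9 genes (*KPNA7* and *ACCSL*) and 268 of all tested genes were called, against 8 and 1671 without that term. The log2 differences of the 10 genes in that fit were 0.59 (*ZP4*) to 2.31 (*ACCSL*), each within 1 SD of its value without the term, such as 1.24 for *ZP2* (1.41 without it), 1.57 for *GDF9* (1.32) and 0.99 for *DPPA3* (1.17).

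**Figure D3:**
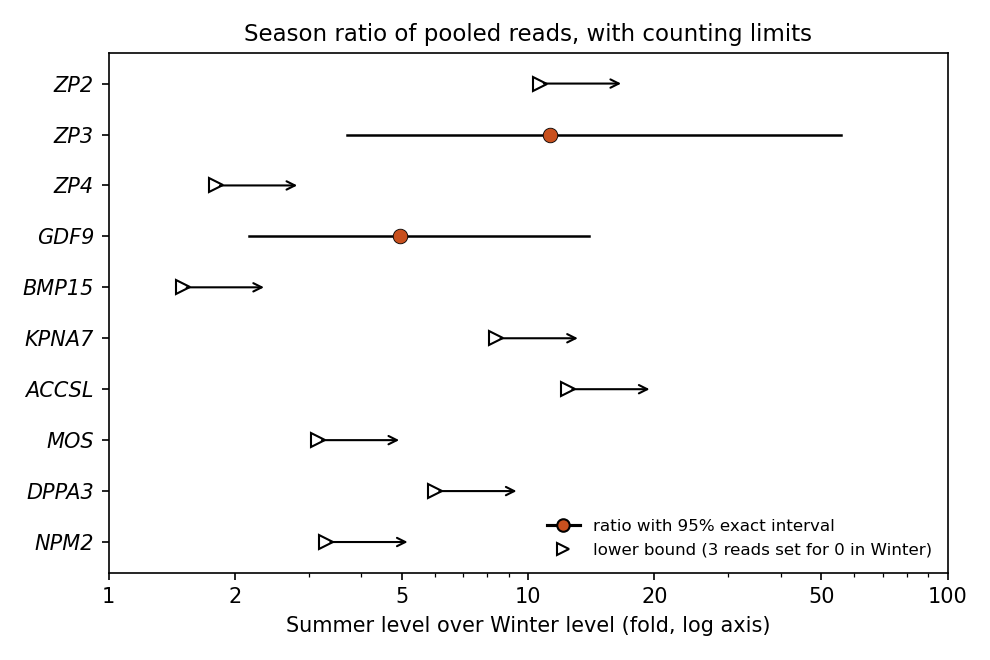
Ratio of the pooled summer level to the pooled winter level of each oocyte gene on a log axis. Filled points with bars are ratios with a 95% exact interval (11.3 for *ZP3* and 4.95 for *GDF9*). Open triangles with arrows, marked as lower bounds, are ratios to a floor of 3 reads over the 4 winter libraries. They leave out the counting error of summer, and the highest is 12.5 for *ACCSL*.

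Markers of other cell types also differed between the groups. Granulosa markers summed to 27862 to 72812 scaled TPM in summer libraries, against 14099 to 19224 in winter libraries, and 7 of 10 were called higher. The largest part was *INHA*, at 13505 to 40783 in summer and 9039 to 12488 in winter. *FOXL2* went the other way, with means of 61.1 in summer and 97.6 in winter, and was not called (log2 difference -0.75, limma adjusted p 0.0991). All 8 leukocyte markers were called lower, with sums of 20.5 to 109 in summer and 307 to 703 in winter. Of the red blood cell markers, the 3 tested were called lower, with sums of 39.0 to 98.9 in summer and 566 to 42414 in winter. *SLC4A1* and *AHSP* were not tested. *SLC4A1*, a red cell membrane protein, was at 0 in all summer libraries and in Winter 1 and 4, with 0.425 and 0.334 in Winter 3 and 5. *AHSP* was highest in Summer 1 (3.67), against at most 2.50 in winter. Of 5 tested markers of cumulus expansion 1 was called higher, the matrix gene *VCAN*, with sums of 111 to 255 in summer and 67.6 to 371 in winter. None of 5 tested theca markers was called by limma, with sums of 1481 to 1738 in summer and 1180 to 1837 in winter. Most of these theca sums came from *CYP11A1*, at 1070 to 1518 in summer and 1019 to 1625 in winter. *CYP17A1*, also on the theca list, was not tested. It had 0.077 in Summer 2 and 2.29 in Winter 1, and was at 0 in all other libraries. The part of these cells in the level of the oocyte genes was not tested. Fewer cells of a type and less RNA per cell cannot be told apart in such bulk samples.

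Within summer, the oocyte genes were among the low genes of the libraries. By mean summer level they ranked from 9497th (*ZP3*) to 13156th (*ZP4*) of the genes other than the 13 mitochondrial protein genes. Genes at 0 in all summer libraries shared rank 16197. The order was *ZP3* (3.15 ± 1.07 scaled TPM, mean ± SD, n = 4), *ACCSL* (3.10 ± 1.73), *GDF9* (2.41 ± 0.946), *KPNA7* (1.99 ± 0.779), *ZP2* (1.76 ± 0.922), *MOS* (1.39 ± 0.814), *DPPA3* (1.35 ± 0.784), *NPM2* (1.25 ± 0.889), *BMP15* (0.617 ± 0.584) and *ZP4* (0.444 ± 0.255). Every neighbour in this order differed by less than the SDs of both genes, except *NPM2* and *BMP15*, whose means differed by 0.63, more than the SD of *BMP15* but less than that of *NPM2*.

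The shares of single oocyte genes differed between summer libraries, and the 2 genes given here were chosen after their values were seen. Summer 5 held the highest value of 5 of the 10 genes and the lowest of none, while Summer 2 held the lowest value of 5 and the highest of *ZP2* and *BMP15*. *ZP2* made up 31.1% of the oocyte reads in Summer 2 (exact 95% interval 22.3 to 40.9), against 13.5% (8.53 to 19.8), 7.81% (2.59 to 17.3) and 9.77% (5.31 to 16.1) in Summer 1, 3 and 5. The interval of Summer 2 lay above those of the other 3 libraries. *ACCSL* was at 7.77% (3.41 to 14.7) in Summer 2, against 17.3% (11.7 to 24.2), 26.6% (16.3 to 39.1) and 23.3% (16.4 to 31.4), and its interval did not meet those of Summer 3 and 5.

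Some pairs moved apart and others did not, with pairs chosen after their values were seen and therefore given with intervals alone. Of the reads of *ZP2* and *ACCSL* together, *ZP2* had 43.8% (29.5 to 58.8) in Summer 1, 80.0% (64.4 to 90.9) in Summer 2, 22.7% (7.82 to 45.4) in Summer 3 and 29.5% (16.8 to 45.2) in Summer 5. *DPPA3* and *NPM2*, both proteins of the maternal chromatin, were at 22 and 3 reads in Summer 1, at 3 and 7 in Summer 2, at 4 and 2 in Summer 3, and at 11 and 10 in Summer 5. The share of *DPPA3* in that pair was 88.0% (68.8 to 97.5) in Summer 1 and 30% (6.67 to 65.2) in Summer 2, intervals that do not meet.

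*GDF9* and *KPNA7* stayed close. *GDF9* had 52.5% of their common reads in Summer 1 (36.1 to 68.5), 55.0% in Summer 2 (31.5 to 76.9), 57.1% in Summer 3 (34.0 to 78.2) and 53.7% in Summer 5 (37.4 to 69.3), all within each other's intervals. In Winter 4 *GDF9* had 5 reads and *KPNA7* 0, too few to tell whether that ratio differed there. *GDF9* and its partner *BMP15* had 21 and 0 reads in Summer 1, 11 and 6 in Summer 2, 12 and 3 in Summer 3, and 22 and 1 in Summer 5. *GDF9* led in all 4 libraries, by the least in Summer 2.

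**Figure D4:**
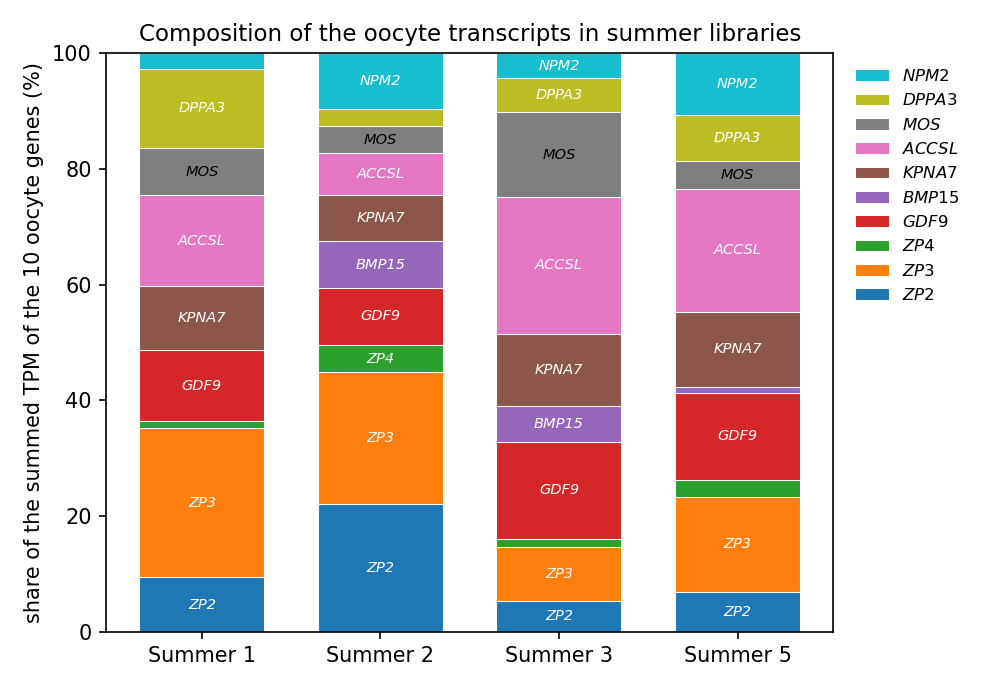
Share of the summed TPM of the 10 oocyte genes (vertical axis, percent) held by each gene in the 4 summer libraries, as stacked bars. *ZP2* takes 22.0% of the bar of Summer 2, against 5.34 to 9.41% in the other bars, and *ACCSL* 7.15% in Summer 2, against 15.7 to 23.6%.

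In the RefSeq annotation of the bovine genome none of the 10 genes overlaps another gene. Next to *GDF9* lies *UQCRQ*, a subunit of respiratory complex III, which had 371 to 425 scaled TPM in summer libraries and 475 to 608 in winter libraries. The neighbour of *ACCSL* is its relative *ACCS*, which had 2.60 to 3.84 scaled TPM in summer and 2.84 to 6.45 in winter. Both neighbours were read in all 8 libraries. Levels of the other genes next to the 10 were not looked up.

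A wider list of oocyte genes outside the 10 was drawn up by role, and 51 of its 62 symbols were in the table, of which 20 passed the filter. Called higher in summer was 1 of the 20, *CCNB3*, and none was called lower by limma, against 6.14% and 6.67% of all tested genes. Of the 20, 5 were at 0 in every winter library and had passed the filter through summer alone, so that their direction was fixed by the filter. The other 15 had a median log2 difference of 0.12, with 8 above 0 and 7 below, against 0.03 over all tested genes. At an adjusted p of at most 0.05 by limma, whatever the fold, 1 of the 15 was higher and 0 were lower, against 11% and 10.2% of all tested genes. At an unadjusted p under 0.05, 3 of the 15 were higher and 1 lower, against 19.1% and 16.7% of all tested genes. With the 5 included, 4 of the 20 were past the adjusted p and higher.

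*CCNB3*, a cyclin that promotes anaphase of the first meiotic division in mouse oocytes, had 14.0, 10.3, 14.1 and 12.04 scaled TPM in Summer 1, 2, 3 and 5, against 3.91, 6.51, 3.44 and 4.58 in Winter 1, 3, 4 and 5. The groups did not overlap, and the log2 difference was 1.3 ± 0.24 (SE), with an adjusted p of 0.0058 by limma. Over the alternatives the adjusted p of *CCNB3* by limma was 0.000935 to 0.0855, and it exceeded 0.05 only with the mitochondrial share as a term, where the log2 difference was 1.25. In winter this gene had 19 to 65 reads per library, unlike the 10 genes above.

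Of the subcortical maternal complex, a protein assembly under the egg surface, and the oocyte NLRP genes, 9 were in the table, 5 were tested and 5 had reads in summer and none in winter. *KHDC3L*, a member of that complex, had 11, 5, 2 and 2 reads in summer and 0 in winter (log2 difference 0.92 ± 0.23, limma adjusted p 0.0188). *PADI6*, an enzyme family member that the egg needs for its cytoplasmic lattices in the mouse, had 9, 2, 8 and 12 reads in summer and 0 in winter (0.97 ± 0.28, limma adjusted p 0.0344). Both were past the adjusted p but under the 2-fold limit. The pooled summer level was 3.0-fold the floor of 3 winter reads for *KHDC3L* and 4.65-fold for *PADI6*. Both were among the 5 tested genes at 0 in every winter library. The filter fixed the direction of such genes, so these values are given as a description.

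Of 11 genes of meiotic arrest and maturation, 5 were tested, with *CCNB3* called and 1 more past the adjusted p. That was *GPR3*, a receptor that holds the oocyte in meiotic arrest in the mouse, which had 7, 2, 3 and 1 reads in summer and 0 in winter (log2 difference 0.80 ± 0.25, limma adjusted p 0.0432). These adjusted p-values depended on single libraries. The limma adjusted p of *KHDC3L* was 0.0612 without Summer 1, that of *PADI6* was 0.0553 to 0.0885 without any 1 library other than Summer 2, and that of *GPR3* was 0.0539 to 0.123 without any 1 library other than Summer 5. Over all alternatives the limma adjusted p reached 0.29 for *KHDC3L*, 0.0885 for *PADI6* and 0.27 for *GPR3*, and was at least 0.0065, 0.00875 and 0.0138. These 3 genes passed the filter through summer alone and were chosen for mention after their values were seen. Their adjusted p-values by limma are therefore a description only.

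The 5 best expressed of the other tested genes in the wider list missed the threshold. *UCHL1*, a ubiquitin hydrolase also found in many neurons, had 540, 519, 336 and 464 scaled TPM in summer, against 384, 386, 447 and 382 in winter (log2 difference 0.20 ± 0.16, limma adjusted p 0.402). *LSM14B*, an RNA-binding protein of stored maternal mRNA, had 20.03, 17.3, 17.8 and 11.7 in summer, against 21.2, 24.3, 25.3 and 25.0 in winter (-0.52 ± 0.20, limma adjusted p 0.0851). Every summer value of *LSM14B* lay below every winter value, as for 11.3% of all tested genes. *AURKC*, a kinase of meiotic chromosome segregation, had 11.0, 10.1, 10.6 and 4.97 in summer, against 14.7, 12.1, 17.1 and 6.11 in winter (-0.38 ± 0.34, limma adjusted p 0.455). All of them were above 0 in all 8 libraries. *ZFP57*, which guards imprints, had 2.69, 2.09, 5.08 and 2.34 scaled TPM in summer, against 6.38, 2.70, 5.70 and 7.76 in winter (-0.70 ± 0.34, limma adjusted p 0.168). *CPEB1*, which regulates the polyadenylation of stored mRNA, had 2.49, 3.65, 3.28 and 3.73 in summer, against 4.27, 2.07, 2.74 and 2.71 in winter (0.14 ± 0.26, limma adjusted p 0.753). In pooled reads the summer to winter ratio was 0.709 (0.634 to 0.794) for *LSM14B*, 0.766 (0.616 to 0.956) for *AURKC* and 0.522 (0.406 to 0.673) for *ZFP57*. It was 1.15 (0.866 to 1.55) for *CPEB1*, and the reads of *UCHL1* were not resolved. These exact intervals cover counting error only. On the deposited TPM, without rescaling, the differences of *LSM14B*, *AURKC* and *ZFP57* turned positive, and *UCHL1* was called there (1.69, limma adjusted p 0.0078). Without a TMM factor *UCHL1* was past the adjusted p but under 2-fold (0.49, limma adjusted p 0.0197).

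Over the 51 genes, 18 were above 0 in at least 1 summer library and at 0 in all winter libraries, and none was the reverse. These 18 were 40.9% of the 44 that were above 0 in any library. Over the whole table, 7.61% of the 16992 genes above 0 in any library were so in summer alone and 4.61% in winter alone. Among genes with a mean under 1 scaled TPM, 27.4% of 4661 genes were above 0 in summer alone and 16.2% in winter alone, beside 17 of the 31 other oocyte genes of that level (54.8%). Another 7 were at 0 in all 8 libraries, and 10 were above 0 in all 8. Reads could be resolved for 12 of the 18, with 62, 19, 45 and 65 reads in Summer 1, 2, 3 and 5. Those reads were fewest in Summer 2, the library where *KPNA7*, *ACCSL*, *MOS* and *DPPA3* were also lowest. Their 0 in winter is what picked them, and the summer level would correspond to 86.0 winter reads. Among them were *OOSP2*, an oocyte-secreted protein with 7, 0, 5 and 17 summer reads, *BTG4*, an adaptor for the removal of maternal mRNA in the mouse with 7, 0, 2 and 3, and *ZAR1*, a factor of the oocyte-to-embryo transition with 2, 0, 1 and 2. All 3 were missing from Summer 2 and present in the other summer libraries. Others among the 18 went the other way, with *FGF8*, *FIGLA* and *EIF4E1B* above 0 in Summer 2 alone and *ASTL* highest there, and the first 3 are among the 6 whose reads were not resolved. These too were chosen for mention after their values were seen.

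By role, the genes above 0 in summer alone were the only egg coat protease gene in the table, 3 of 5 secreted and egg surface genes, 5 of 9 genes of the subcortical maternal complex and NLRP group, 2 of 6 transcription factors, 5 of 12 genes of mRNA translation and storage, 2 of 11 genes of meiosis, and 0 of 7 genes of maternal chromatin and egg survival. These counts are small, the roles also differ in level, and differences between roles were not tested. A read was worth more scaled TPM in most winter libraries than in summer libraries, so the lowest levels read in summer were not detectable in all of them.

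**Figure D5:**
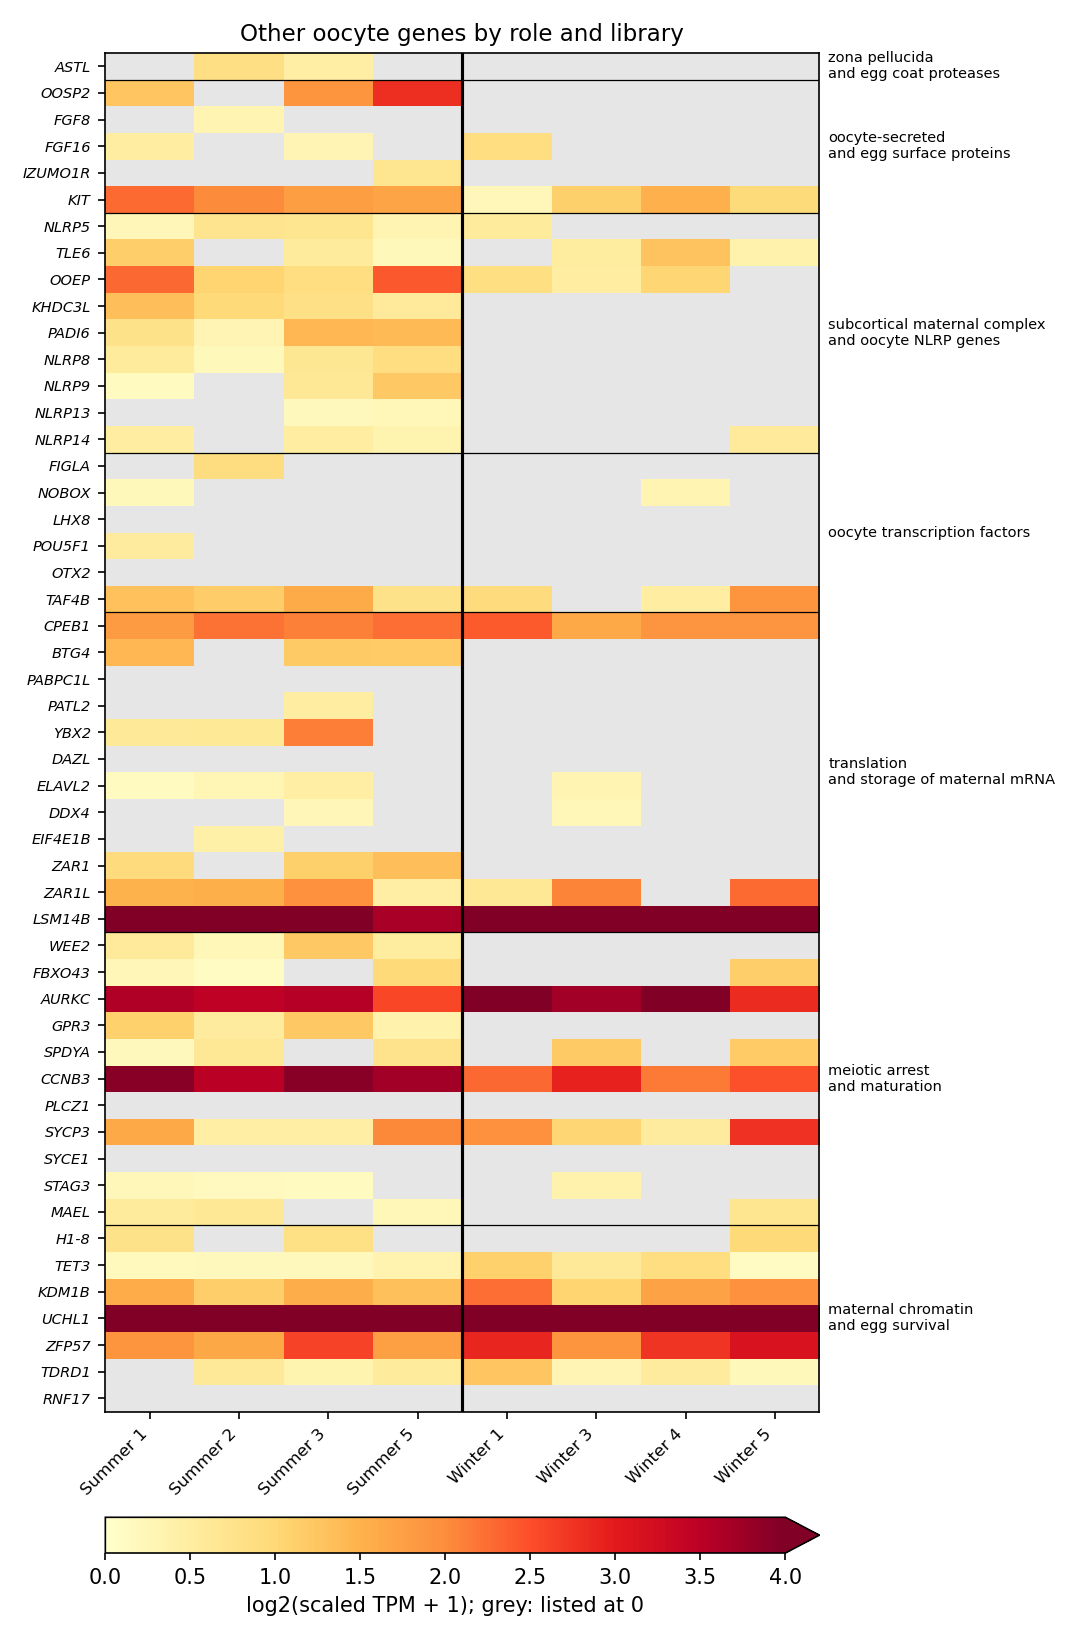
log2(scaled TPM + 1) of the 51 other oocyte genes (rows, grouped by role) in the 4 summer libraries left of the line and the 4 winter libraries right of it, with grey for values listed at 0 and colours from pale to dark red for rising levels. *UCHL1* and *LSM14B* are dark in all 8 columns, *CCNB3* is darker in the summer columns, and 18 genes are coloured in summer columns and grey in all winter columns.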

How the data were processed

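Messenger RNA of granulosa cells was measured in 4 summer and 4 winter libraries. The deposited TPM values are the authors' own. Their methods name CLC Genomics Workbench and TMM, and the submitters' processing notes name Bowtie2 2.2.2, DESeq2 and the build ARS-UCD1.2. Every library of the deposited table adds up to 1000000 TPM, with mitochondrial genes included. The paper's test was a count model, and limma was used here because the file holds TPM.

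The 13 mitochondrial protein genes were left out of the total, and TMM factors were computed unweighted, with 30% of M and 5% of A trimmed. Genes whose zFPKM exceeded -3 in every library of a season were tested on log2(scaled TPM + 1) with limma 3.58.1 (R 4.3.3, trend, season as the only term, Benjamini-Hochberg). How cows were assigned to pools is not given, so p-values measure only the spread between these pools.

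TPM of a gene is its reads over its length times a library constant. The constants were read from the commonest ratio of values between libraries, and each gene's lowest whole numbers of reads followed. If a gene's true numbers share a factor they are higher. Of 15642 genes above 0 in at least 2 libraries, 74.37% resolved with a lowest count of at most 60. Intervals are exact (Clopper-Pearson, 95%). scipy 1.17.1 and matplotlib 3.10.9 were used in Python 3.11.15.

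The 10 genes, the other lists, the tests and the rule for named genes were chosen with earlier results of these data known. Named were all 10 members, every called gene of the wider oocyte list (at most 12), and the 5 of highest mean that were not called. Genes most like the members were the 8 of highest Pearson correlation, over the libraries and over deviations from season means. Of the wider list, 11 symbols were not matched, of which *OOSP1* and *H1FOO* are RefSeq synonyms of *OOSP2* and *H1-8*. Alternatives covered scaling, pseudocount, filter, variance model, weights, replicate block, mitochondrial share and leaving out each library.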

Additional observations from a re-analysis of the deposited data

Results flagged for a closer look

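In 3 of 27 groups of 4 libraries with any spread, a single library stood far from the others by Dixon's criterion, which chance does in about 1 in 20 groups. *GDF9* in Winter 4 had 1.49 scaled TPM from 5 reads, while the other winter libraries had 0 to 0.226. *UCHL1* in Winter 4 had 447 scaled TPM, and the other winter libraries 382 to 386. *AURKC* in Summer 5 had 4.97 scaled TPM, and the other summer libraries 10.1 to 11.0.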

How the results depend on the processing

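All 10 members stayed higher in summer in the 200 values computed under the alternatives, with 30 moved by more than 1 SD. With the main settings 8 members, 1 other oocyte gene higher and 0 lower, and 1671 of all genes were called. On the deposited TPM these were 0 members, 2 other oocyte genes and 5610 genes, of which 98.6% were higher in summer (47.9% with the main scaling), with a median of all genes of 0.89. No member exceeds 2.15 TPM there, and the mean summer sum of the members was 5.29 in place of 17.5. Differences of *LSM14B*, *AURKC* and *ZFP57* were 0.77, 0.71 and 0.26 on that scale. Without a TMM factor 4 other oocyte genes were called and 70.7% of 2221 calls were higher, with a median of 0.28. With quantile normalization 5 of 20 other oocyte genes and 1623 of all 13046 genes were called, with array weights 4 of 20 and 2030 of 13046. A pseudocount of 0.1 gave 9 members, 6 of 20 other oocyte genes and 1849 genes, and a pseudocount of 5 gave 0, 0 and 791 genes. Of those 20 other oocyte genes, 5 had passed the filter through summer alone, which fixed their direction. A filter at 1 scaled TPM left 3 members to test, all called. With the mitochondrial share as a term 2 members, 0 other oocyte genes and 268 genes were called, while the log2 differences of the members were 0.59 to 2.31, each within 1 SD of the main value, and *UCHL1* was at -0.10. The cause of these changes was not tested.

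Leaving out each library in turn gave 6 to 8 members, 1 to 5 other oocyte genes and 1106 to 1837 genes. The 1106 genes came without Summer 1. Other oocyte genes called were 5 of 26 tested without Summer 2, beside 1282 of all 13177 tested genes. They were 2 without each of Summer 3 (of 23 tested), Summer 5 (of 23) and Winter 4 (of 20). With replicate number as a block, 7 members (without *NPM2*), 2 other oocyte genes and 1426 genes were called. Deviations of libraries with the same number correlated at 0.04, 0.16 and 0.11 for numbers 1, 3 and 5. Between libraries of different numbers they ran from -0.13 (Summer 5 and Winter 3) to 0.05 (Summer 2 and Winter 1). Whether the numbers pair the pools was not tested, and the main fit did not use them. In the winter libraries single reads set the limit of detection.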

Other observations

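Genes whose values ran most like the mean log2 profile of the 9 tested oocyte genes were looked up among the 12334 genes that averaged 1 scaled TPM or more. Over the 8 libraries, which split by season, the highest Pearson correlations were those of *GTF2A1* (0.995), *CEP126* (0.994), *DNAJB13* (0.992), *CCDC115* (0.985), *DCK* (0.982), *CMTM6* (0.98), *C15H11orf97* (0.979) and *MFAP3* (0.978). They are descriptions from 8 libraries, without a test. *DNAJB13* had 4.24, 2.52, 3.58 and 6.95 scaled TPM in Summer 1, 2, 3 and 5, against 0, 0, 0.401 and 0 in Winter 1, 3, 4 and 5. *GTF2A1* had 9.50, 8.68, 8.81 and 12.3 in summer, against 4.21, 4.31, 4.57 and 4.16 in winter. Both were highest in Summer 5 and lowest in Summer 2, as was the profile of the oocyte genes.

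Over deviations from the season means, which take the season step out, the highest were *TEX26* (0.962), *KRT73* (0.960), *RNF111* (0.953), *CNNM2* (0.95), *STK33* (0.945), *CYB5A* (0.928), *FHIT* (0.927) and *GTF2A1* (0.927). *TEX26* had 0.947, 0.478, 1.39 and 3.90 scaled TPM in summer, against 0 in all winter libraries. *GTF2A1* alone was in both groups of 8. The deviation of the oocyte profile was 0.32 in Summer 5 and -0.22 in Summer 2 on the log2 scale, and -0.07 and -0.03 in Summer 1 and 3. In winter it ran only from -0.08 (Winter 1) to 0.07 (Winter 4), so these correlations rest mainly on the summer libraries. They too are descriptions without a test.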
